A study of Mus musculus with 6 samples.

Results

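The genes described here build and load MHC class I molecules, which display peptides from inside the cell at its surface. The 10 members were taken by gene symbol from the deposited count table of 22601 genes: the classical heavy chains *H2-K1* and *H2-D1*, the light chain *B2m*, the peptide transporter subunits *Tap1* and *Tap2*, the loading factor *Tapbp*, the immunoproteasome subunits *Psmb8*, *Psmb9* and *Psmb10*, and the transactivator *Nlrc5*. All 10 were listed, and all 10 were among the 13483 genes that passed the filter on low counts and were tested. RNAseq was performed on 6 libraries, 3 of them WT and the other 3 *Slc37a2* KO, to compare gene expression between the genotypes. The sample labels describe osteoclasts grown from bone marrow macrophages (BMMs) with RANKL at 10 ng/ml and M-CSF at 2 ng/ml for 5 days, in both genotypes alike. The RNAseq methods of the study instead describe RNA of entire femurs and tibias taken from mice of both sexes, while its results text, like the labels, speaks of osteoclasts. Genes of neutrophils and B cells, which bone marrow holds, summed to at most 1.24 and 0.282 CPM before TMM scaling in any library, and those of stromal cells to between 555 and 1770 CPM. The column headings give an age of 11 weeks, the letter F and an animal number for every library, and libraries are named by that number: WT K090, L080 and L082, and KO K089, L078 and L081. What the first letter of the number stands for, and whether F marks female animals, is not given in the sources used here.

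KO mice were homozygous for a gene-trap allele of *Slc37a2* (Slc37a2tm2a(KOMP)Wtsi), made from a targeted embryonic stem cell clone and kept on the C57BL/6N background, with WT littermates as controls. The allele was inherited through the germline, so every cell type of the animal carried it, and the line derives from that clone. Library totals were 39250356 (K090), 27552183 (L080) and 31396766 (L082) counts for WT and 29279260 (K089), 42522292 (L078) and 29663713 (L081) counts for KO. Levels are given as CPM, read counts scaled to a common library size, after TMM scaling, edgeR's correction for differences in library composition, unless stated otherwise. *Slc37a2* itself, a sugar-phosphate transporter family member of secretory lysosomes, stood at 1857 (K090), 2151 (L080) and 2440 (L082) CPM in WT and at 45.3 (K089), 32.1 (L078) and 36.9 (L081) CPM in KO libraries. Every KO library was thus far below every WT library, with a log2 fold change of KO over WT of −5.82 (standard error 0.20; Benjamini-Hochberg adjusted p = 7.07e-04, quasi-likelihood test of edgeR). Genes that mark osteoclasts were abundant in every library: the 10 listed (*Acp5*, *Ctsk*, *Mmp9* and others) summed to between 39869 and 70383 CPM before TMM scaling.

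In the class I pathway, cytosolic proteins are cut by the proteasome, and the peptides are carried into the endoplasmic reticulum by the TAP transporter. There tapasin (*Tapbp*) holds the transporter beside new class I molecules, each made of a heavy chain and the light chain, until a peptide of good fit is bound. Interferons raise most of these genes, including the immunoproteasome subunits that take the place of constitutive subunits in newly built proteasomes, and NLRC5 binds class I promoters through a complex of DNA-binding proteins. Osteoclasts arise from the monocyte and macrophage lineage, whose cells carry class I molecules and respond readily to interferons.

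No member of the class I group differed between genotypes beyond the spread of the libraries. The groups overlapped for 10 of 10 members, and the absolute log2 fold change of each was smaller than the SD of its log2 CPM within genotypes. What did differ was the level between libraries of the same genotype: WT library K090 was the highest of the 6 for 10 of 10 members, while WT library L082 was the lowest for 7 and KO library K089 for the other 3. Summed over the 10 members, the level was 3287, 2931 and 2047 CPM in WT libraries K090, L080 and L082, and 2259, 2929 and 2566 CPM in KO libraries K089, L078 and L081. The WT libraries thus held both the highest and the lowest sum, with every KO library between them.

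The heavy chains carry the peptide groove that T cells read. *H2-K1* was at 607, 494 and 314 CPM in WT libraries K090, L080 and L082 and at 320, 519 and 403 CPM in KO libraries K089, L078 and L081. The groups overlapped throughout, and K090 exceeded L082, of the same genotype, by a factor of 1.93. For *H2-K1* the fitted log2 difference was −0.19 with a 95% confidence interval of −0.86 to 0.48 (standard error 0.28; Benjamini-Hochberg adjusted p = 0.969, quasi-likelihood test of edgeR). *H2-D1*, the other classical heavy chain, was at 1064, 978 and 768 CPM in the WT libraries and at 924, 936 and 986 CPM in the KO libraries, in the same order. Its levels were far more even: the highest library exceeded the lowest by a factor of 1.39, and the KO libraries lay within a factor of 1.07 of each other. Before TMM scaling the KO libraries were less even for *H2-D1*, at 860, 992 and 940 CPM. Its fitted log2 difference was 0.02 with a 95% confidence interval of −0.30 to 0.34 (standard error 0.13; Benjamini-Hochberg adjusted p = 0.987, edgeR quasi-likelihood test). *B2m*, which encodes the light chain shared by all class I molecules, was at 948, 877 and 568 CPM in WT and at 590, 877 and 692 CPM in KO libraries. Here WT L080 and KO L078 had the same level, WT L082 and KO K089 were the lowest, and the groups overlapped, with a log2 fold change of −0.15 (standard error 0.23).

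Of the transporter and its loading factor, *Tap1* and *Tapbp* varied widely between libraries and *Tap2* did not. *Tap1* was at 82.5, 73.4 and 43.7 CPM in WT libraries K090, L080 and L082 and at 44.8, 78.6 and 53.2 CPM in KO libraries K089, L078 and L081. Its levels in K090, L080 and L078 stood apart from the other libraries, which cuts across genotype. *Tap2*, the partner subunit without which no peptide is carried, was at 165, 157 and 133 CPM in WT and at 156.1, 156.3 and 156.0 CPM in KO libraries. *Tap2* thus varied least among the 10 members, by a factor of 1.25 between its highest and lowest library and by 1.00 among the KO libraries, while *Tap1* varied by a factor of 1.89. Before TMM scaling the KO libraries were less even for *Tap2*, at 145, 166 and 149 CPM. *Tapbp* was at 221, 193 and 114 CPM in WT and at 125, 186 and 149 CPM in KO libraries, again with the highest and the lowest value in WT. The log2 fold changes were −0.18 for *Tap1* (standard error 0.29), 0.04 for *Tap2* (standard error 0.09) and −0.20 for *Tapbp* (standard error 0.26).

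Among the immunoproteasome subunits, *Psmb8* and *Psmb9* varied more between libraries than either heavy chain, while *Psmb10* did not exceed *H2-K1*. *Psmb8*, which encodes the chymotrypsin-like subunit LMP7, was at 105, 80.3 and 55.4 CPM in WT libraries K090, L080 and L082 and at 49.5, 94.7 and 67.5 CPM in KO libraries K089, L078 and L081. *Psmb9*, which encodes LMP2, was at 31.9, 26.9 and 13.3 CPM in WT and at 14.2, 25.8 and 17.1 CPM in KO libraries. For both genes, WT L082 and KO K089 were the lowest libraries, and the highest exceeded the lowest by factors of 2.12 and 2.40. *Psmb10*, which encodes MECL-1, was at 41.0, 36.6 and 29.6 CPM in WT and at 28.1, 36.9 and 32.0 CPM in KO libraries, with a narrower spread of 1.46 from lowest to highest. Log2 fold changes were −0.18 for *Psmb8* (standard error 0.30), −0.33 for *Psmb9* (standard error 0.36) and −0.15 for *Psmb10* (standard error 0.15), each smaller than the within-genotype SD of the gene's log2 CPM (0.47, 0.56 and 0.22).

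*Nlrc5*, the transactivator of class I genes, had the widest spread of the members. It was at 21.3, 15.9 and 8.22 CPM in WT libraries K090, L080 and L082 and at 7.89, 18.3 and 11.4 CPM in KO libraries K089, L078 and L081. The highest library exceeded the lowest by a factor of 2.70, and the order of libraries (K090, L078, L080, L081, L082, K089) was also that of *Psmb8* and *Psmb10*. For *Nlrc5* the fitted log2 difference was −0.27, and its 95% confidence interval of −1.29 to 0.75 was the widest among the members (standard error 0.42; Benjamini-Hochberg adjusted p = 0.969, quasi-likelihood test of edgeR).

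**Figure D1:**
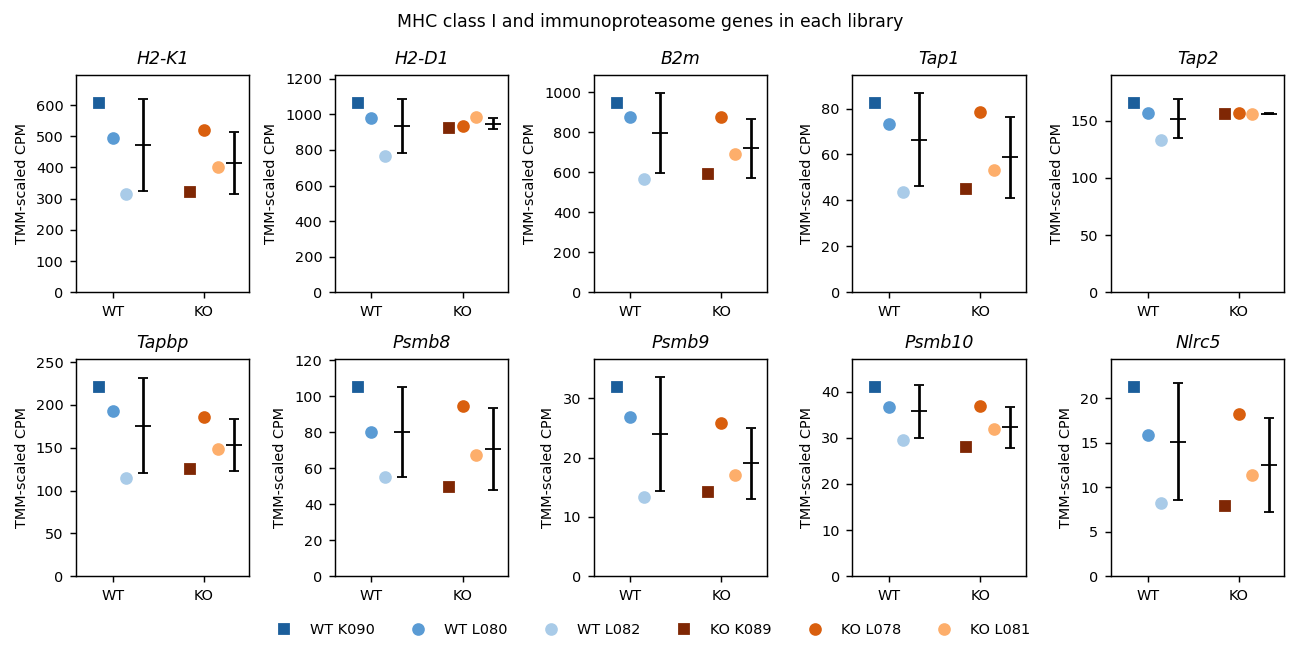
TMM-scaled CPM of each of the 10 members (vertical axes, starting at 0) in the 3 WT and 3 KO libraries; points are libraries, squares mark animal numbers that begin with K and circles those that begin with L, and bars show the mean ± SD of each genotype (n = 3). The groups overlap in every panel, and K090 is the highest library in each, from 21.3 CPM for Nlrc5 to 1064 CPM for H2-D1.

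Across the members, 0 of 10 were called (quasi-likelihood test of edgeR, Benjamini-Hochberg adjusted p below 0.05), and 0 of 10 had an unadjusted p below 0.05. Among all 13483 tested genes, 0.00742% (*Slc37a2* alone) were called and 0.712% had an unadjusted p below 0.05. The Wald test of DESeq2 called 0 of 10, as did the likelihood ratio test of edgeR. The 3 KO libraries lay all below the 3 WT libraries for 0 members, against 2.81% of tested genes, and all above them for 0 members, against 1.5%. Fitted log2 fold changes were below 0 for 8 members, against 56.2% of tested genes, and above 0 for *H2-D1* and *Tap2*, with a median over members of −0.18, against −0.02 over all tested genes. This direction rested on single libraries: 4 members were lower in KO without WT library K090, and 10 without WT library L082. The 95% confidence interval lay within −1 to 1 for 8 members, all but *Psmb9* and *Nlrc5*, and stayed under 1.5 in size at either bound for all 10. A p that misses the threshold does not show that levels were equal, and a difference smaller than these intervals was not detectable here.

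The spread between libraries was wider for the members than for most tested genes with a mean above 10 CPM. The ratio of the highest to the lowest library had a median of 1.91 over the 10 members, against 1.23 over the 8692 tested genes with a mean above 10 CPM. For 6 members it exceeded the 90th percentile of those genes, 1.79, and these were *H2-K1*, *Tap1*, *Tapbp*, *Psmb8*, *Psmb9* and *Nlrc5*. The SD of log2 CPM within genotypes had a median of 0.42 over members and 0.17 over all tested genes. With every gene centred on its mean log2 CPM, the members' median level was 0.45, 0.22 and −0.42 in WT (K090, L080 and L082) and −0.39, 0.26 and −0.11 in KO (K089, L078 and L081), so that each genotype had libraries on both sides of the mean. The libraries with the largest total counts, L078 and K090, also had the highest median levels of the members, while L080, which was above the mean, had the smallest total of the 6. The part of total counts in this spread was not tested.

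Split by the letter of the animal number, the difference between genotypes ran in opposite directions. Between the libraries beginning with K, 1 of each genotype, KO K089 was below WT K090 for 10 of 10 members (tested genes, 52.6%). This count was fixed by K090 being the highest library for every member, so it shows no more than that. The median log2 difference was −0.85 (all tested genes, −0.02). Among the 4 libraries beginning with L, the KO mean was above the WT mean for 10 of 10 members, against 45.1% of tested genes, with a median log2 difference of 0.16 (all tested genes, −0.01). For every member WT L082 was the lowest of these 4 libraries, so this count too leaned on 1 library. *Nlrc5* showed the largest K difference, −1.43, beside an L difference of 0.33, and *Tap2* the smallest K difference, −0.08, beside 0.11. In a fit of the 4 L libraries alone, chosen after seeing the data, 0 of 10 members were lower in KO and their median log2 fold change was 0.13. The K libraries hold 1 sample per genotype, so this difference has no replicate check. Whether the letter marks a litter, a batch or something else is not given in the sources used here, and its part in the members' spread was not tested.

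Levels of different genes were compared per kilobase of merged exons in the GENCODE M21 annotation of GRCm38. *B2m* stood highest, at 882 ± 190 CPM per kilobase (SD, n = 6 libraries), followed by *H2-D1* at 418 ± 43.8 and *H2-K1* at 256 ± 67.8, an order found in each of the 6 libraries. *B2m* ranged from 661 to 1102 CPM per kilobase and did not overlap *H2-D1*, whereas the highest library for *H2-K1* (351) passed the lowest for *H2-D1* (340). A lower tier, below every value of *H2-K1*, held *Tapbp* at 53.2 ± 13.5, *Psmb8* at 45.2 ± 13.2 and *Tap2* at 43.5 ± 3.11 CPM per kilobase. The ranges of these 3 overlapped. *Tapbp* was above *Psmb8* in each of the 6 libraries. *Tap2* had no fixed place between them, ranking above *Tapbp* in L082 and K089 and above *Psmb8* in L082, K089 and L081. *Psmb10* at 26.0 ± 3.78, *Tap1* at 21.2 ± 5.92 and *Psmb9* at 12.8 ± 4.57 CPM per kilobase followed, each overlapping the next. *Nlrc5*, a regulator, was lowest at 1.70 ± 0.68 CPM per kilobase and overlapped no other member. *Tap2* was thus above its partner *Tap1* per kilobase in every library. Merged exons can be longer than the transcript a cell uses, so these are levels per annotated length.

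Each immunoproteasome subunit replaces a constitutive counterpart, LMP7 for the product of *Psmb5*, LMP2 for that of *Psmb6* and MECL-1 for that of *Psmb7*. The ratio of *Psmb8* to *Psmb5* CPM was 1.53, 1.31 and 0.763 in WT libraries K090, L080 and L082 and 0.651, 1.55 and 0.865 in KO libraries K089, L078 and L081. The ratio of *Psmb9* to *Psmb6* was 0.189, 0.174 and 0.0689 in WT and 0.0760, 0.157 and 0.0880 in KO libraries. The ratio of *Psmb10* to *Psmb7* was 0.210, 0.211 and 0.137 in WT and 0.141, 0.196 and 0.160 in KO libraries. All 3 ratios were lowest in L082 and K089 and highest in K090, L080 and L078, across genotypes. On the log2 scale KO minus WT was −0.27 for *Psmb8* over *Psmb5* (exact permutation test, two-sided, p = 0.8), −0.37 for *Psmb9* over *Psmb6* (exact p = 0.6) and −0.16 for *Psmb10* over *Psmb7* (exact p = 0.6), with an adjusted p of 0.8 for each over the 3 ratios. With 3 libraries against 3 the exact test cannot go below 0.1. These differences leaned on single libraries: with 1 left out they ran from −0.62 (without KO L078) to 0.0064 (without KO K089) for *Psmb8* over *Psmb5*, from −0.84 (without WT L082) to −0.11 (without WT K090) for *Psmb9* over *Psmb6*, and from −0.36 (without WT L082) to −0.0463 (without KO K089) for *Psmb10* over *Psmb7*. The spread of the ratios followed the immunosubunits: *Psmb5*, *Psmb6* and *Psmb7* varied between libraries by factors of 1.27, 1.26 and 1.24, less than *Psmb8*, *Psmb9* and *Psmb10* did.

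The wider pathway was described with 7 lists, of which 97 genes were tested. Of these, 0 were called (quasi-likelihood test of edgeR, Benjamini-Hochberg adjusted) and 0 had an unadjusted p below 0.05. Fitted log2 fold changes were below 0 for 69 and above 0 for 28, where 56.2% of all tested genes were below 0. The counts given below for each list are to be read against that share too. Over the alternatives, the 69 ran from 46 in the L libraries alone to 76 without WT library L080. The 3 KO libraries lay all below the WT libraries for 5 genes and all above for 0, in shares to be read against the 2.81% and 1.5% of all tested genes. Those 5, named after their values were seen, were *Canx*, *Hspa5* and *Tpp2* of the loading and trimming list and *Psma5* and *Psmb3* of the constitutive core, with log2 fold changes between −0.15 and −0.04.

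Other heavy chain and class I-like genes were tested for 12 of 27 listed, since the rest had few counts or were not listed by symbol. No classical heavy chain was among the 12 tested. Of these 12, 9 had a log2 fold change below 0 (4 in the L libraries alone), and the median was −0.35. *H2-T23*, which encodes the nonclassical molecule Qa-1 and had the most counts of this list, was at 76.9, 70.6 and 56.1 CPM in WT libraries K090, L080 and L082 and at 70.2, 63.8 and 81.8 CPM in KO libraries K089, L078 and L081. It varied by a factor of 1.46 across libraries, with a log2 fold change of 0.08 (standard error 0.14). *H2-T24* was at 10.2, 6.40 and 2.66 CPM in WT and at 2.57, 6.12 and 4.28 CPM in KO libraries, a factor of 3.99 from lowest to highest, wider than that of *Nlrc5*. The log2 fold changes with the largest size in the list were −1.01 for the pseudogene *H2-T-ps* (standard error 0.53), at under 1 CPM in every library, and −0.57 for *H2-T24* (standard error 0.53), with overlapping groups for both.

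Genes of peptide loading and trimming, many of which serve protein folding and turnover in general, mostly varied little across libraries, with *Erap1*, *Tapbpl* and *Calr* as the exceptions (factors of 1.81, 1.68 and 1.63 from lowest to highest). Of the 16 tested, 12 had a log2 fold change below 0, with a median of −0.07, and the highest library exceeded the lowest by a median factor of 1.16. *Calr*, which encodes the chaperone calreticulin and had the most counts of the list, was at 1797, 1628 and 2476 CPM in WT libraries K090, L080 and L082 and at 2652, 1768 and 2386 CPM in KO libraries K089, L078 and L081. It was high where the members were low, in L082 and K089. *Tapbpl*, a tapasin-related peptide editor, had a log2 fold change of −0.37 (standard error 0.19), and *Erap1*, the aminopeptidase that trims class I peptides in the endoplasmic reticulum, of −0.25 (standard error 0.24). *Erap1* was at 67.9, 56.1 and 43.1 CPM in WT and at 37.4, 62.0 and 41.3 CPM in KO libraries, highest in K090 as for the members and lowest in K089 as for 3 of them.

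The proteasome itself was nearly flat. Its constitutive core had 10 of 14 genes with a log2 fold change below 0 and a median of −0.05, and its regulatory cap had 12 of 18 (5 of 18 without WT library L082) and a median of −0.02. The median highest-to-lowest factors were 1.19 and 1.13, close to the 1.23 of tested genes above 10 CPM. *Psmb7*, with the most counts of the core list, was at 195, 174 and 215 CPM in WT libraries K090, L080 and L082 and at 199.6, 188 and 200.2 CPM in KO libraries K089, L078 and L081. The largest log2 fold changes of the core were −0.14 for *Psma5* (standard error 0.06) and −0.12 for *Psmb3* (standard error 0.06). The cap unfolds proteins marked with ubiquitin and feeds them to the core. In the cap, *Psmd2*, with the most counts, had a log2 fold change of −0.01, and the largest were 0.14 for *Psmd8* (standard error 0.09) and −0.08 for *Psmd14* (standard error 0.07). Among 10 activators and assembly factors, 6 were below 0, with a median of −0.04. *Psme4*, with the most counts of that list, had a log2 fold change of 0.00 (standard error 0.05), and *Psmg4*, an assembly chaperone, of −0.23 (standard error 0.19) and a factor of 1.59 from lowest to highest. The interferon-inducible activator PA28, which opens the core to let peptides out, is part of that list. *Psme1*, a subunit of PA28, was at 80.7, 67.3 and 51.5 CPM in WT and at 47.7, 68.4 and 55.1 CPM in KO libraries, and its partner *Psme2*, named after its values were seen, at 146, 125 and 91.1 CPM in WT and at 98.6, 124 and 115 CPM in KO libraries. Both PA28 subunits had the division of libraries seen for the members, with factors of 1.69 and 1.60 from lowest to highest.

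Factors that regulate class I promoters were tested for 17 of 17 listed genes, of which 12 had a log2 fold change below 0 (median −0.11). *Nfkb1*, with the most counts of the list, was at 163, 157 and 149 CPM in WT libraries K090, L080 and L082 and at 144, 151.3 and 150.9 CPM in KO libraries K089, L078 and L081, a factor of 1.13 from lowest to highest. *Irf8*, an interferon regulatory factor of macrophages that is downregulated as osteoclasts form, was at 19.1, 15.1 and 5.10 CPM in WT and at 2.86, 18.1 and 4.42 CPM in KO libraries. *Irf9*, the DNA-binding part of the factor activated by type I interferon, was at 31.4, 24.2 and 10.9 CPM in WT and at 9.54, 24.2 and 12.4 CPM in KO libraries. Both were high in K090, L080 and L078 and low in the other libraries, by factors of 6.68 and 3.29 from lowest to highest. Their log2 fold changes were −0.62 (*Irf8*, standard error 0.78) and −0.52 (*Irf9*, standard error 0.48), with overlapping groups.

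Interferon receptors and signalling genes were tested for 10 of 10, of which 8 had a log2 fold change below 0 (median −0.07), or 5 without WT library K090, 4 without KO library K089 and 2 in the L libraries alone. *Jak1*, with the most counts of the list, varied by a factor of 1.12. *Usp18*, an interferon-induced inhibitor of the type I receptor, was at 10.5, 5.90 and 0.931 CPM in WT libraries K090, L080 and L082 and at 0.661, 5.59 and 1.31 CPM in KO libraries K089, L078 and L081, a factor of 15.9 from lowest to highest and a log2 fold change of −1.17 (standard error 1.01). *Socs1*, a feedback inhibitor, was below 1 CPM in every library and had a log2 fold change of 0.36 (standard error 0.29). Of 10 interferon ligand genes, the deposited table listed *Ifnb1* by symbol, with 1 count in L080, 1 in L078 and 0 in the others, too few to compare. At such depth a low level of ligand transcripts was not detectable.

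Genes known to respond to type I interferon followed the same libraries with a larger spread. All 20 listed were tested, 20 had a log2 fold change below 0, and the median was −0.77, with 0 called and 0 at an unadjusted p below 0.05 in edgeR's quasi-likelihood test. Without WT library K090, 16 of the 20 were below 0, and in the L libraries alone 0 were. Relative to each gene's mean, the list's median log2 level was 1.63, 0.61 and −0.97 in WT libraries K090, L080 and L082 and −1.38, 0.88 and −0.55 in KO libraries K089, L078 and L081. *Bst2*, a tethering protein with the most counts of the list, was at 65.3, 47.6 and 23.4 CPM in WT and at 19.8, 48.9 and 27.9 CPM in KO libraries. The largest log2 fold changes were −0.98 for *Ifit3* (standard error 1.00) and −0.97 for *Oasl2* (standard error 1.03), each with overlapping groups. Guanylate-binding and immunity-related GTPases, which respond to interferon gamma, had 11 of 12 tested genes below 0 (median −0.50), or 7 without WT library K090 and 1 in the L libraries alone, and list medians of 0.98, 0.28 and −0.44 in WT and −1.02, 0.67 and −0.32 in KO libraries. *Gbp7*, with the most counts of that list, was at 47.4, 42.8 and 33.4 CPM in WT and at 27.2, 38.5 and 30.7 CPM in KO libraries, and the largest log2 fold changes were −1.10 for *Gbp6* (standard error 1.13) and −0.70 for *Iigp1* (standard error 0.96). The order of the libraries by these list medians, K090, L078, L080, L081, L082 and K089, was the same for both lists and for *Nlrc5*. The part of an interferon response in the members' levels was not tested.

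**Figure D2:**
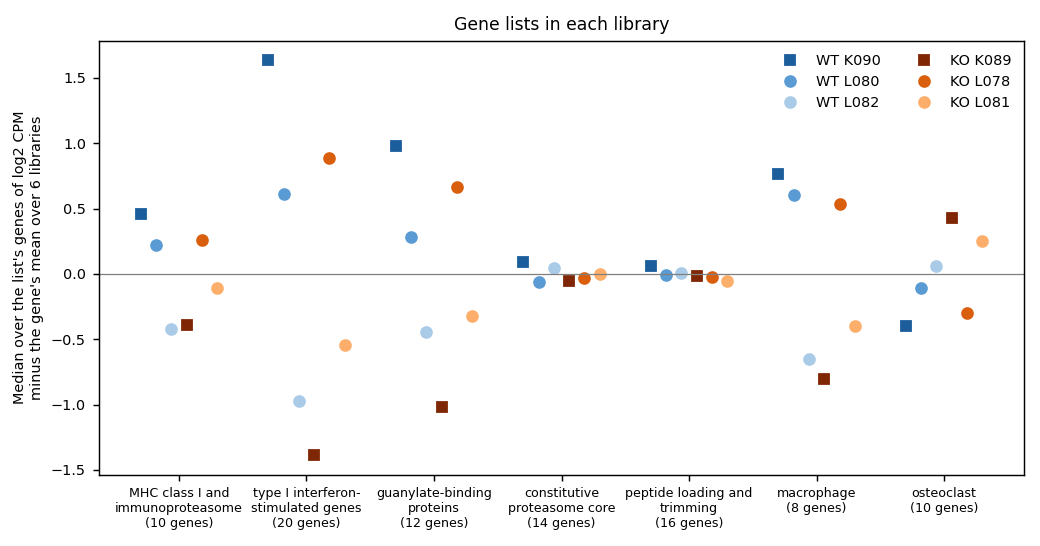
Median over the genes of each list of log2 CPM minus the gene's mean over the 6 libraries (vertical axis, log2 units), for the members and 6 other lists; points are libraries, squares mark animal numbers that begin with K and circles those that begin with L. The members run from 0.45 in K090 to −0.42 in L082, the type I interferon-stimulated genes from 1.63 in K090 to −1.38 in K089, and the osteoclast list from 0.43 in K089 to −0.40 in K090.

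Most macrophage markers had the members' division of libraries, with *Csf1r* and *Cd68* as exceptions. The macrophage list had 8 of 8 genes tested, 6 of them with a log2 fold change below 0 (median −0.37) and 1 in the L libraries alone, and list medians of 0.77, 0.61 and −0.65 in WT libraries K090, L080 and L082 and −0.81, 0.53 and −0.40 in KO libraries K089, L078 and L081. *Adgre1*, which encodes F4/80, was at 312, 272 and 80.0 CPM in WT and at 64.4, 262 and 95.8 CPM in KO libraries, and *Mrc1*, the mannose receptor gene, at 96.2, 81.3 and 22.5 CPM in WT and at 14.3, 87.8 and 19.1 CPM in KO libraries. The log2 fold changes of *Adgre1* and *Mrc1* were −0.65 (standard error 0.67) and −0.72 (standard error 0.82). The list summed to 4332, 4456 and 4073 CPM before TMM scaling in WT and to 4394, 4302 and 4269 CPM in KO libraries, most of it *Csf1r* and *Cd68*, which osteoclasts also express. *Csf1r*, with the most counts, had a log2 fold change of 0.08 (standard error 0.11). *Cd68*, named after its values were seen, ran opposite to the members, at 1454, 1578 and 1864 CPM in WT and at 2252, 1491 and 2039 CPM in KO libraries (log2 fold change 0.24, standard error 0.18).

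Osteoclast genes ran the other way. Of 10 tested, 10 had a log2 fold change above 0 (median 0.28), or 9 without WT library L082 and 6 in the L libraries alone. The median log2 difference, KO minus WT, was 0.83 between the K libraries and 0.00 among the L libraries, so most of the difference lay between the K libraries, 1 of each genotype. The list had medians of −0.40, −0.11 and 0.06 in WT libraries K090, L080 and L082 and 0.43, −0.30 and 0.25 in KO libraries K089, L078 and L081. Before TMM scaling the list summed to 39869, 51934 and 57359 CPM in WT and to 70383, 44352 and 64178 CPM in KO libraries. *Mmp9*, with the most counts, was at 17157, 23544 and 24072 CPM in WT and at 32320, 18721 and 27194 CPM in KO libraries, and the largest log2 fold changes were 0.45 for *Ctsk* (standard error 0.37) and 0.36 for *Acp5* (standard error 0.28), with 0 of 10 called and 0 at an unadjusted p below 0.05 in edgeR's quasi-likelihood test. By the list medians, K089 and L081 were thus high for osteoclast genes and K090 and L078 low. Not every gene followed: *Calcr*, named after its values were seen, was highest in L080 (149 CPM) and lowest in L082 (88.8 CPM). In bulk libraries, fewer cells of a type and less RNA per cell cannot be told apart. The part of macrophage and osteoclast content in the members' levels was not tested.

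Class II presentation genes did not share the members' order of libraries. All 5 had a log2 fold change above 0 (median 0.33), or 4 without WT library L082 and 4 without KO library L081: *H2-Ab1* 0.50, *H2-Aa* 0.49, *H2-Eb1* 0.33, *H2-DMa* 0.11 and *Cd74* 0.08, with standard errors between 0.17 and 0.49. Their sum was 45.7, 58.0 and 28.3 CPM before TMM scaling in WT libraries K090, L080 and L082 and 41.6, 39.3 and 60.1 CPM in KO libraries K089, L078 and L081, most of it *Cd74*. L081 was highest and K090 was not, in contrast to the 10 members. The lowest sum was in L082, as for the members. Of 8 dendritic cell genes, 7 were listed and 3 tested, *Itgax* (0.35), *Ccr7* (0.35) and *Zbtb46* (−0.00), with a summed level of 21.8 to 29.6 CPM.

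Markers of lymphoid and other cells were scarce. The T and NK cell list had 2 of 8 genes in the table, *Cd4* and *Klrb1c*, with sums of 2.55, 2.00 and 0.860 CPM before TMM scaling in WT libraries K090, L080 and L082 and 0.478, 2.12 and 0.573 CPM in KO libraries K089, L078 and L081. *Cd4*, which some myeloid cells also express, made up most of this and was the gene tested (log2 fold change −0.72, standard error 0.66). B cell genes summed to at most 0.282 CPM, with *Cd79b* at the most counts and 0 tested, and of the class I receptors of lymphocytes 1 of 8 was tested, *Klra3*, at under 1 CPM (log2 fold change −0.02, standard error 0.40). Neutrophil genes summed to between 0.307 and 1.24 CPM. *S100a8*, the one tested, was at 0.833, 0.601 and 0.706 CPM in WT and at 0.294, 0.488 and 0.318 CPM in KO libraries, from 8 to 34 counts per library. Its KO libraries lay below the WT libraries, as for 2.81% of tested genes, with a log2 fold change of −0.93 (standard error 0.31), an unadjusted p of 0.0223 and a Benjamini-Hochberg adjusted p of 0.969 (quasi-likelihood test of edgeR).

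Stromal genes had an order of libraries of their own. The list, 6 of 8 tested, summed to 784, 1146 and 1471 CPM before TMM scaling in WT libraries K090, L080 and L082 and to 609, 1770 and 555 CPM in KO libraries K089, L078 and L081, with *Col1a1* at the most counts. Log2 fold changes were −0.60 (*Cxcl12*), −0.54 (*Dcn*), −0.43 (*Pdgfra*), −0.21 (*Col1a2*), −0.19 (*Col1a1*) and −0.19 (*Col3a1*), with standard errors between 0.35 and 0.49. The number below 0 was 6 with all libraries, 2 without WT L082, and 3 without KO K089 or without KO L081. L082 was among the highest for this list and among the lowest for the members. Osteoblast genes (4 of 6 tested) summed to between 14.6 and 26.7 CPM, with *Runx2* at the most counts and log2 fold changes of −0.56 (*Alpl*), −0.11 (*Runx2*), −0.08 (*Sp7*) and −0.07 (*Ibsp*). Endothelial genes (2 of 5 tested) summed to between 3.03 and 6.18 CPM, with *Kdr* at the most counts and log2 fold changes of −0.32 (*Pecam1*) and −0.07 (*Kdr*).

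The genes outside the group whose pattern over the 6 libraries was nearest to the members' median pattern were found by the root mean square difference of centred log2 CPM. Among the nearest 10 of 13473 genes were *Cracr2b* (0.0345), *Slc4a7* (0.0389), *Myo1f* (0.0420), *Trim14* (0.0486), *Slc45a4* (0.0491), *Camkk2* (0.0494), *Adam17* (0.0499), *Abca3* (0.0612) and *Cd14* (0.0615), against a median of 0.366 over all genes compared. *Cd14*, the lipopolysaccharide coreceptor, also on the macrophage list, was at 46.6, 42.4 and 24.8 CPM in WT libraries K090, L080 and L082 and at 25.5, 37.9 and 30.3 CPM in KO libraries K089, L078 and L081. None of the genes named here is in the pathway lists described above.

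In the GENCODE M21 annotation of GRCm38, 7 of the members lie in the major histocompatibility complex region of chromosome 17. *Psmb9* (34181987 to 34187764, minus strand), *Tap1* (34187553 to 34197225, plus strand), *Psmb8* (34197721 to 34201454, plus strand) and *Tap2* (34203527 to 34216321, plus strand) lie side by side, with *Tapbp* (33915899 to 33929292, plus strand) and *H2-K1* (33996017 to 34000347, minus strand) on one side and *H2-D1* (35262730 to 35267499, plus strand) on the other. *B2m* is on chromosome 2 (122147686 to 122153083, plus strand), and *Psmb10* (105935735 to 105938444, minus strand) and *Nlrc5* (94434356 to 94527272, plus strand) are on chromosome 8. Of these 4 neighbours, *Psmb9*, *Tap1* and *Psmb8* varied by factors of 2.40, 1.89 and 2.12 between libraries, and *Tap2*, next to *Psmb8*, by 1.25. Annotated *Psmb9* and *Tap1* overlap at their starts on opposite strands, and whether the counting used strand is not given in the sources used here, so reads in the overlap cannot be assigned with certainty.

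Shared sequence can also blur the counts of related genes. Of the 50-base windows of annotated transcripts, 6.87% for *H2-K1* and 13.9% for *H2-D1* occurred identically in transcripts of another gene, most often *H2-D1* (5.43% of the windows of *H2-K1*) and *H2-Q1* (6.68% of those of *H2-D1*). The shares were 22.4% for *Tapbp*, 12.1% for *Tap2*, 9.71% for *Psmb9*, 6.27% for *Tap1* and 5.51% for *Psmb8*, mostly with the overlapping or adjacent annotated genes *Gm19412*, *Gm15821*, *Tap1*, *Psmb9* and *Gm20496*. *B2m*, *Psmb10* and *Nlrc5* shared 0% of their windows. How reads that match more than 1 gene were counted is not given in the sources used here, so the values of the 7 members with shared windows carry this uncertainty, with the largest share in *Tapbp*.

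As most members moved together across libraries, their promoters were examined in the RefSeq promoter table of GRCm38.p6, which holds 250 bases before to 50 bases after the transcript start. Of the 10 members, 8 matched by symbol; *Tap2* and *Nlrc5* had no entry. The letters searched for, on both strands, included GGGATTCCC, the kappa B site of class I promoters; AANNGAAA, the core of the interferon response element, and its longer form AANNGAAAC, which contains the core; TGACG, the core of the CRE-like X box; and ATTGG, the inverted CCAAT of the Y box. Of all 32851 promoters in the table, 0.353% held GGGATTCCC, 23.9% AANNGAAA, 5.77% AANNGAAAC, 20.8% TGACG and 37.4% ATTGG. Among the 8 members, GGGATTCCC and AANNGAAAC were each found in 2 (*H2-K1* and *H2-D1*), AANNGAAA in 3 (these and *B2m*), TGACG in 5 and ATTGG in 6. The windows of *Tap1* and *Psmb9* overlap and share the same TGACG and ATTGG sites, which are thus counted for both. A match describes letters in the window, and its absence says no more than that these letters are not there.

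The windows of *H2-K1* (chr17:34000298-34000597, minus strand), *H2-D1* (chr17:35262844-35263143, plus strand) and *B2m* (chr2:122147437-122147736, plus strand) are printed because the heavy chains and the light chain are bound into 1 molecule and *H2-D1* varied less than the others; capitals mark the matches listed above. All are GRCm38.p6 and run 5′ to 3′ on the gene's own strand.
H2-K1: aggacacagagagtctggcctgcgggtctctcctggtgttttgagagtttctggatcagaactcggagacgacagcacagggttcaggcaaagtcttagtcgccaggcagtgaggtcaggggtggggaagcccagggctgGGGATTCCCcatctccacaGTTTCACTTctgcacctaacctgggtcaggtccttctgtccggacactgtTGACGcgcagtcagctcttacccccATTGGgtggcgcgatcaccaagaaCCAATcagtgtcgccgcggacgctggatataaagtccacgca
H2-D1: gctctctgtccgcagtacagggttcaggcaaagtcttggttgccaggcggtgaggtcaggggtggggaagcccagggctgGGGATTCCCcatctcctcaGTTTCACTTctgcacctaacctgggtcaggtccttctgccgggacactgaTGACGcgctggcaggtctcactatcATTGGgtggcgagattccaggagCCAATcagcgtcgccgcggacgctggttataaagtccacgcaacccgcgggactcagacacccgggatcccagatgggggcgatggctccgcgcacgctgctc
B2m: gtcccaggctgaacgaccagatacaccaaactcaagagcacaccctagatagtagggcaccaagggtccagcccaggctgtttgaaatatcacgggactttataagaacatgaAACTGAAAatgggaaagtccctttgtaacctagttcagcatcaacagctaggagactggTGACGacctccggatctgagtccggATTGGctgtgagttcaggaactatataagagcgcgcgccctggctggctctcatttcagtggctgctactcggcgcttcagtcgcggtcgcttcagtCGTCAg
*H2-K1* and *H2-D1* held the same matches in the same order: GGGATTCCC, then AANNGAAAC on the opposite strand, followed by TGACG, with ATTGG after it and last a CCAAT on the opposite strand. Their levels across libraries spread by factors of 1.93 and 1.39, and the part of these letters in the spread was not tested. *B2m* held AANNGAAA first, TGACG next and then ATTGG, and no GGGATTCCC, with a further TGACG on the opposite strand near its end, and spread by a factor of 1.67. The *H2-D1* window lies inside the span annotated for that gene by GENCODE, whose start is upstream of the RefSeq start.

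*Tap1* and *Psmb9* are transcribed in opposite directions from a shared stretch, and their windows overlap by 275 bases. The *Tap1* window (chr17:34187306-34187605, plus strand, GRCm38.p6) is printed 5′ to 3′ because it holds the starts of a transporter subunit and an immunoproteasome subunit whose levels ranked K090 highest and L082 lowest alike; capitals mark CCAAT, the opposite strand of ATTGG, and TGACG.
Tap1: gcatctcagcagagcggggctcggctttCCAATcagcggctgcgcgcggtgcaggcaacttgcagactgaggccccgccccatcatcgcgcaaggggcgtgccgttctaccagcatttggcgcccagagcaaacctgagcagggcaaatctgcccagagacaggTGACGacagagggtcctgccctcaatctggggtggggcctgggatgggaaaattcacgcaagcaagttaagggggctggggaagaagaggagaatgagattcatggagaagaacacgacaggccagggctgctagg
AANNGAAA was not found in this window. *Tap1* and *Psmb9* spread across libraries by factors of 1.89 and 2.40.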

How the data were processed

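RNAseq libraries were sequenced on an Illumina NovaSeq instrument. The submitters' processing notes name bcl2fastq 2.20.0.422, edgeR 3.30.3 and the genome build mm10, while no aligner, counting tool or annotation is named. Whole-number read counts were deposited for 22601 genes. Beside them, the authors deposited their own edgeR comparison, with log2 fold changes and mean log2 CPM, a likelihood ratio score, and p-value and FDR columns, and none of these were used. Columns were assigned to a genotype by their headings, and 0 columns belonged to other samples. The most similar libraries, K089 and L081, differed with a chi-square per degree of freedom of 7.03, so none was counted as a duplicate. The libraries come from separate animal numbers.

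The software was edgeR 4.0.16, DESeq2 1.42.0 and limma 3.58.1 under R 4.3.3, then Python 3.11.15 with matplotlib 3.10.9. Low-count genes were dropped by filterByExpr at its defaults (minimum count 10, minimum total 15), which left 13483 genes holding 99.9% of counts in each library. After TMM scaling, genotype was tested with glmQLFit and glmQLFTest, p values of all tested genes were adjusted by Benjamini-Hochberg, and genes were called at an adjusted p below 0.05. The biological coefficient of variation was 20.8%, and the fit used 2.35 prior degrees of freedom. Centred levels are log2 CPM with a prior count of 2, minus the gene's mean over libraries. Intervals are 95% confidence intervals from the estimate and standard error. The fits were tested on simulated data.

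The genes named are *Slc37a2*, the members, of each other list all genes where 6 or fewer were tested and otherwise the gene with the most counts and the 2 with the largest absolute log2 fold change, and genes among the 10 of nearest pattern. Members and lists were chosen with earlier results of these data known, so the lists are described by counts and medians, with no test over a list. Alternatives were other scaling, filters and tests, each library left out in turn, a term for the letter of the animal number, and the L libraries alone, the last added after seeing the data. Gene positions and lengths come from GENCODE M21 and promoter sequences from the RefSeq table of GRCm38.p6.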

Additional observations from a re-analysis of the deposited data

How the results depend on the processing

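No member was called under any of 14 alternatives, with adjusted p from 0.360 (without KO library L078; Benjamini-Hochberg, quasi-likelihood test of edgeR) to 1.00. *Slc37a2* was called in all of them, at log2 fold changes of −6.06 (L libraries alone) to −5.69. The number of genes called over the whole table was 1, and 2 with no filter on low counts, with edgeR's likelihood ratio test and with DESeq2's Wald test. Scaling, filters, tests and the letter term left 8 members lower in KO. Leaving out WT K090 made this number 4 and leaving out WT L082 made it 10, the extremes over single libraries, and it was 0 in the L libraries alone, an alternative added after seeing the data. The members' median log2 fold change ran from −0.38 to 0.02 with single libraries left out and was 0.13 in the L libraries alone. There the sign turned for 8 members: *H2-K1* 0.19, *B2m* 0.12, *Tap1* 0.17, *Tapbp* 0.12, *Psmb8* 0.26, *Psmb9* 0.0959, *Psmb10* 0.0564 and *Nlrc5* 0.30. With single libraries left out, the sign turned for 6 members, whose ranges were −0.39 to 0.0354 (*H2-K1*), −0.0816 to 0.12 (*H2-D1*), −0.44 to 0.0101 (*Tap1*), −0.0208 to 0.11 (*Tap2*), −0.46 to 0.0598 (*Psmb8*) and −0.65 to 0.0582 (*Nlrc5*). The cause was not tested beyond the choice of libraries. Pathway genes lower in KO numbered 46 to 76 over all alternatives. With CPM from raw totals, 1 of 20 member means moved by more than its SD, that of *Tap2* in KO (153 CPM). No paired analysis was possible because the column headings carry no replicate number and the letter L covers 2 libraries of each genotype; the fit with the letter as a term compared genotypes within letters. Each member had 215 counts or more in every library.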
